A study of Mus musculus with 8 samples.

Results

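The caveolins and cavins, the proteins that shape and coat caveolae, were followed through RNA sequencing of mouse haematopoietic stem and progenitor cells. The gene group comprised 5 of the 23284 genes in the count table, the caveolin genes Cav1 and Cav2 and the cavin genes Ptrf, Prkcdbp and Sdpr, which now carry the symbols Cavin1, Cavin3 and Cavin2. All 5 symbols were found, and 4 passed the filter on low counts that left 13300 genes for testing, Cav1 being the exception. The genes were chosen by family name, but the family itself was selected on the difference between the 2 sorted fractions in these same libraries. Differences of these 5 genes between the fractions are therefore given as descriptions. No p is printed for them, and where a gene stands relative to the threshold of the fit over all genes is recorded without being read as evidence.

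Caveolae are small flask-shaped pits of the plasma membrane, rich in cholesterol and sphingolipids, that buffer membrane tension and gather signalling proteins. Caveolins insert into the inner leaflet of the membrane as oligomers, and cavins assemble on them from the cytosol as a peripheral coat. Caveolae are known to be abundant in endothelium, adipocytes and muscle and scarce in most circulating blood cells.

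The cells came from bone marrow of C57BL/6 mice carrying a green fluorescent protein (GFP) reporter for Hdc, the gene of histidine decarboxylase, which makes histamine. Every library held 2000 cells from the LSK gate (lineage markers absent, Sca-1 and c-Kit present), so reporter and gate were common to all samples. The fractions were Hdc-GFPhi, sorted for high GFP (n = 4 libraries), and Hdc-GFPlo, sorted for low GFP (n = 4 libraries). Hdc-GFPhi replicate 4 is labelled GFP+ in its cell type field and Hdc-GFPhi replicate 2 has the fraction's name in its mouse line, and both were kept in the group of their titles. The sources used here do not give age, sex, the origin of the replicates or how the reporter line was made.

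Libraries held 21041170 to 22470121 counts in Hdc-GFPhi and 16726179 to 23051277 counts in Hdc-GFPlo, and 14856 to 15446 genes had at least 1 count. Kit, the gene of c-Kit, lay at 1300 to 1540 CPM (read counts set to a common library total by TMM, the trimmed mean of M-values) in Hdc-GFPhi and 748 to 1470 CPM in Hdc-GFPlo, and Ly6a, which encodes Sca-1, at 102 to 144 CPM in Hdc-GFPhi, against 96.4 to 135 CPM in Hdc-GFPlo. The T cell gene Cd8a had no count in any library and Cd3e had 0 counts in Hdc-GFPhi and 7 in Hdc-GFPlo, whereas the B cell gene Cd79a, another lineage marker, was detected and was lower in Hdc-GFPhi (edgeR adjusted p = 0.00507, log2 fold change -2.15), as was the lymphoid receptor gene Il7r. Hdc itself, whose reporter set the gate, was at 10.1 to 14.5 CPM in Hdc-GFPhi, against 10.9 to 13.4 CPM in Hdc-GFPlo, so its transcript did not separate the fractions. On the first principal component Hdc-GFPhi replicate 4 lay at one end and Hdc-GFPlo replicate 1 at the other, and on the second Hdc-GFPhi replicate 2 lay opposite Hdc-GFPlo replicate 3.

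The promoters of the cavin with the most counts, Ptrf, and of the adjacent caveolin genes Cav2 and Cav1 are shown because these genes span the range of levels in these cells. Each sequence is the 250 bases before the transcription start in RefSeq (build GRCm38.p6, whereas the reads were placed on mm9), read 5′ to 3′ on the strand of the gene. Capitals mark matches, on either strand, to the GC box GGGCGG, the CCAAT box CCAAT and the TATA box TATAAA. The windows are chr11:100970618-100970867, minus strand, for Ptrf, chr6:17280935-17281184, plus strand, for Cav2 and chr6:17306085-17306334, plus strand, for Cav1.
Ptrf: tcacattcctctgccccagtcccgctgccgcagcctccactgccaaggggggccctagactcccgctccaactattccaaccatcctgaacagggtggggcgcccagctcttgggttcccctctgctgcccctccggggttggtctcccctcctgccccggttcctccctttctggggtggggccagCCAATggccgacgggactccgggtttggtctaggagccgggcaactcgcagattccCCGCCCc
Cav2: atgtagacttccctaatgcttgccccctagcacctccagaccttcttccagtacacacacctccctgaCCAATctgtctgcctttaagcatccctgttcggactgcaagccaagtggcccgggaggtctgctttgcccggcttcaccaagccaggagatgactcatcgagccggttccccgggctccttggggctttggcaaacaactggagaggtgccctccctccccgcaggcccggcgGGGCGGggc
Cav1: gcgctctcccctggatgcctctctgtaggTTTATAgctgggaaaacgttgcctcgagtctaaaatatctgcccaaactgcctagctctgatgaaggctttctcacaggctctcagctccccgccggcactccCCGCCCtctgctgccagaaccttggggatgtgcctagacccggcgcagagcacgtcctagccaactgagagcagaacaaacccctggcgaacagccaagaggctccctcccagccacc

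The windows of Ptrf and Cav2 each hold 1 GC box and 1 CCAAT box, and that of Cav1 holds 1 GC box and 1 TATA box. The Sdpr window, with 40.4% G and C against 67.6% for Ptrf, holds 1 CCAAT box and none of the others. Of 27025 RefSeq promoters cut to the same length, 32.9% hold a GC box, 34.5% a CCAAT box and 13.0% a TATA box. The GATA motif AGATAA (10.3% of promoters), the RUNX motif TGTGGT (14.2%) and the ETS motif CCGGAAGT (2.93%) match none of the 4 windows. These matches describe letters only. A promoter of Prkcdbp is not used here.

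Ptrf and Prkcdbp, the genes of cavin-1 and cavin-3, were higher in every Hdc-GFPhi library than in any Hdc-GFPlo library, while Sdpr, the gene of cavin-2, and Cav2 lay at overlapping levels in the fractions and Cav1 was at or close to 0 in all libraries. In edgeR's quasi-likelihood fit over all genes these 2 members stood past an adjusted p of 0.05, beside 0.947% of all tested genes in either direction and 0.241% higher in Hdc-GFPhi. Groups that did not overlap with Hdc-GFPhi on top were seen for these 2 members and for 3.38% of all tested genes. Because the family was selected on this contrast, nothing is read from these counts. In sorted bulk samples more cells that carry a transcript and more transcript per cell cannot be told apart.

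**Figure D1:**
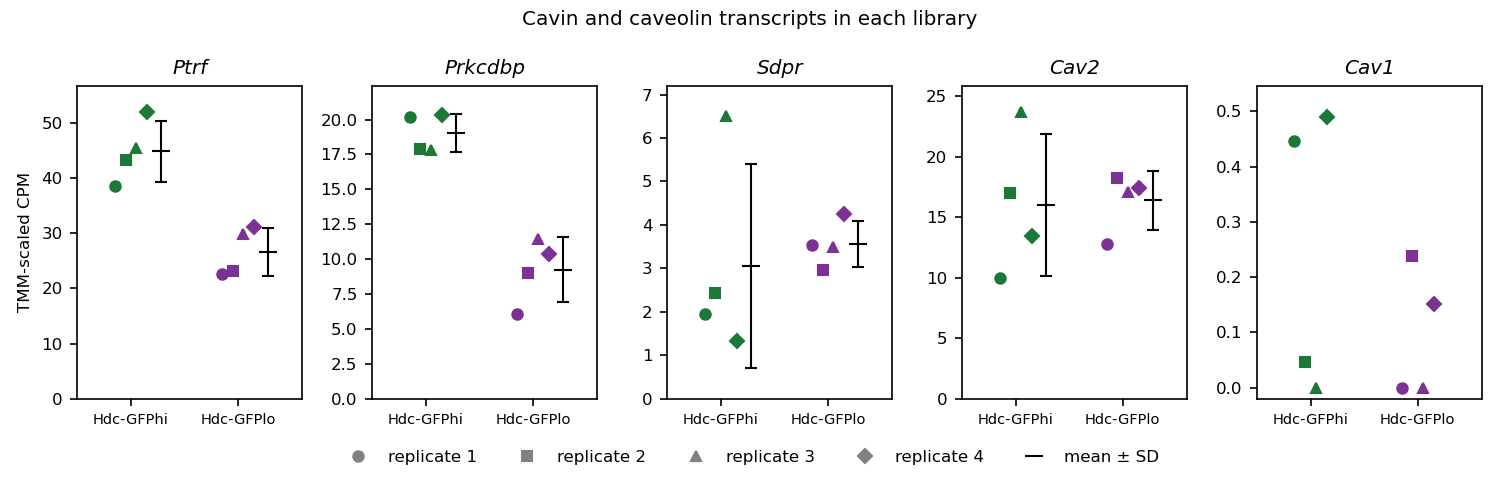
TMM-scaled CPM of each cavin and caveolin gene (1 panel per gene, linear axes of different range) in the 4 Hdc-GFPhi libraries and the 4 Hdc-GFPlo libraries. Marker shapes are replicate numbers and black bars the mean ± SD, left out for Cav1. Ptrf (38.5 to 51.9 CPM in Hdc-GFPhi, 22.6 to 31.0 in Hdc-GFPlo) and Prkcdbp (17.9 to 20.3 in Hdc-GFPhi, 6.11 to 11.5 in Hdc-GFPlo) separate the fractions, and Hdc-GFPhi replicate 3 is the highest library for Sdpr and Cav2.

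Cavin-1, the product of Ptrf, was first described as a factor that releases transcripts of RNA polymerase I and is required for caveolae to form. Ptrf had 863, 928, 1019 and 1165 counts in Hdc-GFPhi replicates 1 to 4, against 511, 391, 537 and 612 counts in Hdc-GFPlo replicates 1 to 4. The fractions did not overlap in counts or in CPM. Ptrf had a mean of 44.8 ± 5.58 CPM over the 4 Hdc-GFPhi libraries, against 26.6 ± 4.35 CPM over the 4 Hdc-GFPlo libraries (± SD). Its log2 fold change was 0.75 ± 0.15 (SE), a 1.68-fold higher level in Hdc-GFPhi with a 95% interval of 1.35 to 2.10.

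Cavin-3, the product of Prkcdbp, binds protein kinase C delta and has been studied for its part in the traffic of caveolar vesicles. Prkcdbp had 452, 383, 401 and 456 counts in Hdc-GFPhi replicates 1 to 4, against 138, 152, 207 and 205 counts in Hdc-GFPlo replicates 1 to 4. The lowest Hdc-GFPhi library was above the highest Hdc-GFPlo library, and Hdc-GFPlo replicate 1 was the lowest of all. Prkcdbp had a mean of 19.1 ± 1.38 CPM over the 4 Hdc-GFPhi libraries, against 9.25 ± 2.32 CPM over the 4 Hdc-GFPlo libraries (± SD), with a log2 fold change of 1.04 ± 0.20 (SE), 2.06-fold with a 95% interval of 1.54 to 2.77. The coefficient of variation was 7.21% in Hdc-GFPhi and 25.1% in Hdc-GFPlo.

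Where both genes stood relative to the threshold depended on single libraries, and their log2 fold change was above 0 in all 17 alternatives, a direction that the selection had fixed. Prkcdbp missed the threshold when replicate 1, 3 or 4 of the Hdc-GFPhi fraction was left out, with log2 fold changes of 1.02, 1.08 and 1.01, and when replicate 1, 2 or 4 of the Hdc-GFPlo fraction was, with 0.89, 1.03 and 1.11. Ptrf missed it when replicate 2, 3 or 4 of the Hdc-GFPhi fraction was left out, with 0.76, 0.75 and 0.67, and when replicate 1 or 2 of the Hdc-GFPlo fraction was, with 0.68 and 0.69. With Hdc-GFPhi replicate 4 left out along with Hdc-GFPlo replicate 3, Prkcdbp (1.15) passed and Ptrf (0.74) did not.

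The balance between these 2 cavins was also compared. The ratio of Ptrf to Prkcdbp counts was 1.91, 2.42, 2.54 and 2.56 in Hdc-GFPhi replicates 1 to 4, against 3.70, 2.57, 2.59 and 2.98 in Hdc-GFPlo replicates 1 to 4. Every Hdc-GFPlo ratio was above every Hdc-GFPhi ratio, but only narrowly for Hdc-GFPlo replicates 2 and 3. The ratio is built from the 2 genes that were selected on this contrast. No share over other pairs of genes was computed, and nothing is read from it. Ptrf, Prkcdbp and Sdpr together came to 60.6 to 73.6 CPM in Hdc-GFPhi, against 32.2 to 45.7 CPM in Hdc-GFPlo. Prkcdbp supplied 25.61% to 33.26% of their counts in Hdc-GFPhi and 18.93% to 25.65% in Hdc-GFPlo, so these shares overlapped.

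Cavin-2, the product of Sdpr, binds phosphatidylserine and bends caveolar membrane, and its transcript did not follow the other cavins. Sdpr had 44, 52, 146 and 30 counts in Hdc-GFPhi replicates 1 to 4, against 80, 50, 63 and 84 counts in Hdc-GFPlo replicates 1 to 4. Hdc-GFPhi replicate 3 was the highest library of all and the other 3 Hdc-GFPhi libraries were below every Hdc-GFPlo library in CPM, with 1.34 to 2.43 CPM against 2.97 to 4.26 CPM. Sdpr had a mean of 3.06 ± 2.34 CPM over the 4 Hdc-GFPhi libraries, against 3.56 ± 0.53 CPM over the 4 Hdc-GFPlo libraries (± SD). On the log2 scale the difference was -0.22 (95% interval -1.16 to 0.71), and -0.89 once Hdc-GFPhi replicate 3 was left out. The coefficient of variation of 76.5% in Hdc-GFPhi was over the 14.3% that counting error alone would give, whereas 14.9% in Hdc-GFPlo was close to the 12.3% from counting.

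Caveolin-2, the product of Cav2, forms oligomers with caveolin-1 and depends on it to reach the cell surface in most cells. Cav2 had 224, 364, 532 and 302 counts in Hdc-GFPhi replicates 1 to 4, against 289, 307, 308 and 344 counts in Hdc-GFPlo replicates 1 to 4. The Hdc-GFPhi libraries spanned the whole range, with replicate 1 lowest and replicate 3 highest, and enclosed all Hdc-GFPlo values. Cav2 had a mean of 16.0 ± 5.85 CPM over the 4 Hdc-GFPhi libraries, against 16.4 ± 2.45 CPM over the 4 Hdc-GFPlo libraries (± SD), with a log2 fold change of -0.03 and a 95% interval of -0.55 to 0.49. That interval does not show that the fractions are alike, since it reaches a 1.40-fold rise and a level 0.685 times that of Hdc-GFPlo.

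Caveolin-1, the product of Cav1, is the main structural caveolin outside muscle, and its transcript was close to absent. Cav1 had 10, 1, 0 and 11 counts in Hdc-GFPhi replicates 1 to 4, against 0, 4, 0 and 3 counts in Hdc-GFPlo replicates 1 to 4. The fractions overlapped, each had a library without a count, and 22 counts in Hdc-GFPhi and 7 in Hdc-GFPlo were found in all. In the libraries at 0 a count of 0 allows up to 0.13 to 0.165 CPM (3 counts, counting error only). Cav1 lies beside Cav2 on chromosome 6, on the same strand, and in the libraries where Cav1 was detected Cav2 had 22.4 to 364 counts in Hdc-GFPhi for each Cav1 count and 76.8 to 115 in Hdc-GFPlo.

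The muscle members of the families, which the group does not include, were not expressed at a measurable level. Cav3, the muscle caveolin, had 0 counts in all 8 libraries, which allows at most 0.13 to 0.179 CPM in a library, and Murc, now Cavin4, had 0 counts in Hdc-GFPhi and 1 in Hdc-GFPlo. By annotation (GENCODE M21), Cav1 and Cav2 overlap the antisense gene Gm15581, Sdpr an antisense gene with no count in any library and Prkcdbp an unclassified transcript on the opposite strand. The sources used here do not give the strand setting of the counting, so reads from such transcripts cannot be told apart from those of the members.

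Levels were also compared between members over all libraries, a comparison that the choice of the group did not use directly. On log2 reads per kilobase of the longest annotated transcript, with 0.5 added to each count, the order was Ptrf, Prkcdbp, Cav2, Sdpr and Cav1. This order and its neighbouring pairs came from the same libraries, so the p-values do not cover the choice of pairs or of transcript length. Differences that involve Ptrf or Prkcdbp also hold the contrast between fractions on which the family was selected. The difference in level between Ptrf and Prkcdbp was 0.32 ± 0.27 on the log2 scale (SD, n = 8 libraries), with Ptrf higher in 7 of 8 (exact two-sided sign-flip permutation test, p = 0.0156, adjusted p = 0.0208 over 4 neighbouring pairs). It was 0.16 in Hdc-GFPhi alone and 0.48 in Hdc-GFPlo alone, and 1.07 over all libraries with the mean transcript length. The level of Cav2 exceeded that of Sdpr by 2.54 ± 0.50, and that of Sdpr exceeded Cav1 by 4.75 ± 2.49, each in 8 of 8 libraries (exact permutation p = 0.00781, the smallest that 8 libraries allow, adjusted p = 0.0156). The last value depends on the added count, because Cav1 was at 0 in 3 libraries.

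Prkcdbp and Cav2 were the neighbours whose levels did not differ beyond their spread over all libraries, at 0.45 ± 0.76 (SD, n = 8, exact permutation p = 0.164, adjusted p = 0.164). Per kilobase Prkcdbp averaged 11.5 ± 0.83 CPM in Hdc-GFPhi, against 5.56 ± 1.39 in Hdc-GFPlo, and Cav2 averaged 5.86 ± 2.14 in Hdc-GFPhi and 5.99 ± 0.89 in Hdc-GFPlo (SD, n = 4 each). The level of Prkcdbp was above that of Cav2 in 4 of 4 Hdc-GFPhi libraries and in 1 of 4 Hdc-GFPlo libraries. This split holds the difference of Prkcdbp between the fractions, on which the family was selected, and nothing is read from it. With the mean transcript length the order of these 2 genes reversed (-0.45), because the mean over the 3 Cav2 transcripts is shorter than the longest and Prkcdbp has 1 transcript.

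**Figure D2:**
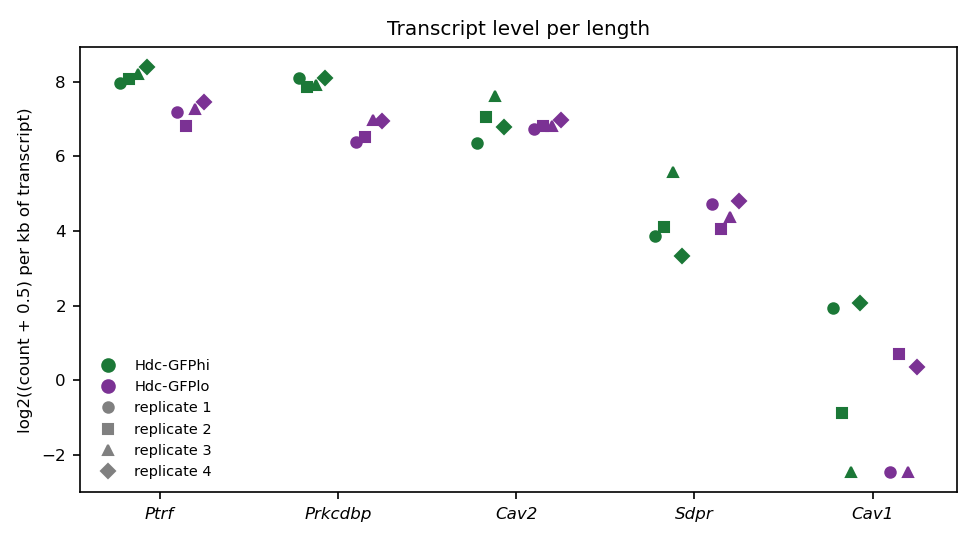
Log2 of (count + 0.5) per kilobase of transcript for the 5 genes, without scaling for library total, by library (green, Hdc-GFPhi, and purple, Hdc-GFPlo; marker shapes are replicate numbers). Ptrf, Prkcdbp and Cav2 form the upper levels, the level of Sdpr is 2.54 below that of Cav2 on average, and Cav1 is lowest, with 3 libraries at 0 counts drawn at the bottom.

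Other genes of the caveolar pathway were taken from 3 lists. Of 41 coat partners, binding partners and raft scaffolds in the table, 33 were tested and edgeR called none higher and none lower, beside 0.947% of all tested genes, a share at which a list of this size may well hold no call. DESeq2 and limma voom also called 0, and 1 gene had an unadjusted p under 0.05, which is 3.03% of them beside 10.9% of all tested genes. Their median log2 fold change was 0.05, with 20 above 0 and 13 below 0, beside a median near 0 over all tested genes.

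Among proteins that work at the neck or coat of caveolae, Pacsin1, a membrane-bending protein of neurons, had the smallest p (2.29 CPM in Hdc-GFPhi, against 4.07 CPM in Hdc-GFPlo, log2 fold change -0.83 ± 0.31, edgeR adjusted p = 0.322). Ehd3, an ATPase of the family that sits at caveolar necks, was at 9.03 CPM in Hdc-GFPhi, against 6.29 CPM in Hdc-GFPlo (0.52 ± 0.26, adjusted p = 0.524). Ehd2, the family member best known from caveolae, was scarce, at 1.56 CPM in Hdc-GFPhi, against 2.05 CPM in Hdc-GFPlo. Pacsin2, which shapes caveolae in non-muscle cells, and the scission dynamin Dnm2 were far more abundant, at 147 and 264 CPM in Hdc-GFPhi, against 132 and 233 CPM in Hdc-GFPlo, with log2 fold changes of 0.16 ± 0.09 and 0.18 ± 0.14. Within this list of 13 genes 9 were tested, and Cav3, Murc, Dnm1 and Dnm3 were too low, Dnm3 having 23 counts in Hdc-GFPhi and 0 in Hdc-GFPlo.

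Of the 18 binding partners, 15 were tested. Prkcd, the kinase that cavin-3 binds, was at 179 CPM in Hdc-GFPhi, against 207 CPM in Hdc-GFPlo (log2 fold change -0.21 ± 0.11, edgeR adjusted p = 0.557), and Src, a kinase that phosphorylates caveolin-1, was at 5.89 CPM in Hdc-GFPhi, against 4.38 CPM in Hdc-GFPlo (0.42 ± 0.28, adjusted p = 0.671). Ttf1, the polymerase I termination factor that binds the Ptrf product, was at 43.8 CPM in Hdc-GFPhi, against 48.5 CPM in Hdc-GFPlo (-0.15 ± 0.12, adjusted p = 0.759). Nos3, the endothelial nitric oxide synthase held inactive by caveolin-1, was too low to test, with 32 counts in Hdc-GFPhi and 13 in Hdc-GFPlo. Among 9 tested raft scaffolds of 10, the flotillin Flot2 (124 CPM in Hdc-GFPhi, 109 CPM in Hdc-GFPlo, 0.18 ± 0.14, adjusted p = 0.727) and the stomatin-like Stoml1 (0.13 ± 0.14, adjusted p = 0.827) had the smallest p.

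**Figure D3:**
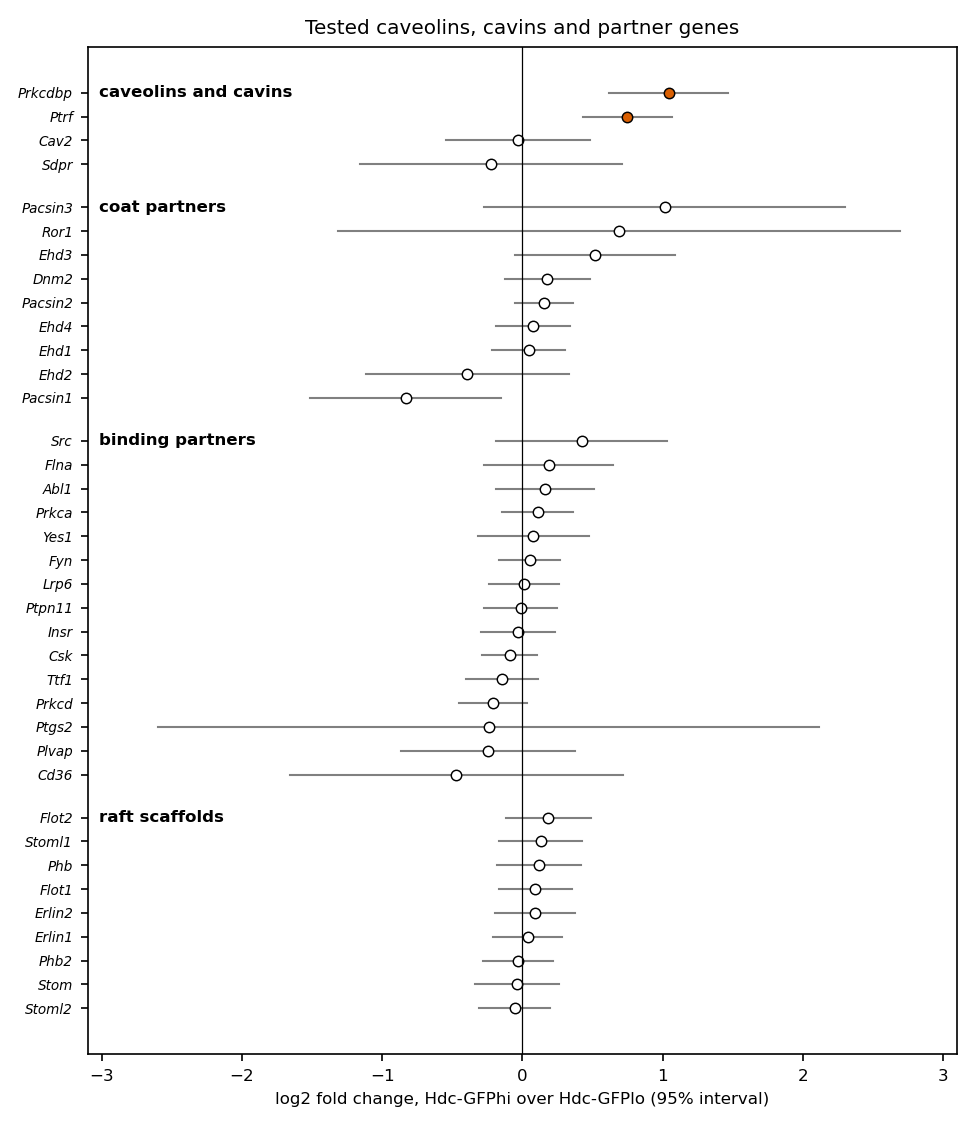
Log2 fold change of Hdc-GFPhi over Hdc-GFPlo with 95% intervals from the edgeR fit, for the 4 tested members and the 33 tested partner genes, grouped by role. Filled points passed an adjusted p of 0.05 and open points did not. Prkcdbp (1.04) and Ptrf (0.75) are filled, but were selected on this contrast, so their fill is no comparison with the partner genes, which have a median of 0.05.

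Markers of cell types known for caveolins or cavins were set beside these values, and their part in the difference was not tested. The summed level of 20 endothelial markers was 720 to 973 CPM in Hdc-GFPhi, against 630 to 900 CPM in Hdc-GFPlo, with overlapping fractions and a median log2 fold change of 0.26. None of 15 tested was called by edgeR, and 6 had an unadjusted p under 0.05, beside 0.947% and 10.9% of all tested genes. Of the 15, 9 had a log2 fold change above 0 and 6 below 0. Tie1 (109 CPM in Hdc-GFPhi, against 63.2 CPM in Hdc-GFPlo, adjusted p = 0.0886), Tek and Eng lay higher in every Hdc-GFPhi library than in any Hdc-GFPlo library, beside 3.38% of all tested genes. Egfl7 lay the other way, at 207 CPM in Hdc-GFPhi, against 260 CPM in Hdc-GFPlo (-0.33 ± 0.13, edgeR adjusted p = 0.357). Cdh5, an endothelial cadherin, had 12 counts in Hdc-GFPhi and 15 in Hdc-GFPlo. Cldn5 averaged 3.27 CPM in Hdc-GFPhi, against 1.31 CPM in Hdc-GFPlo (edgeR adjusted p = 0.458). Rasip1 averaged 4.27 CPM in Hdc-GFPhi, against 2.42 CPM in Hdc-GFPlo (edgeR adjusted p = 0.361), and both genes overlapped between the fractions. Much of the sum came from Egfl7, Eng, Pecam1 and Tie1. The 20 stromal markers summed to 218 to 250 CPM in Hdc-GFPhi, against 224 to 301 CPM in Hdc-GFPlo. Of these, 9 were tested, none was called and 1 had an unadjusted p under 0.05. Most of the stromal sum came from Runx2 (134 CPM in Hdc-GFPhi, 157 CPM in Hdc-GFPlo) and Pdgfrb (72.1 and 90.7 CPM). Among the stromal markers Lum was at 0, Dcn had 1 count in each fraction and Lepr 1 in Hdc-GFPhi and 3 in Hdc-GFPlo. Other stromal markers were detected and tested. Vcam1 had 1484 counts in Hdc-GFPhi and 1331 in Hdc-GFPlo, and Col1a2 had 228 and 142. Nes had 231 counts in Hdc-GFPhi and 157 in Hdc-GFPlo, Cxcl12 had 169 and 85, and Tagln had 157 and 211. The 10 adipocyte markers summed to 29.8 to 38.7 CPM in Hdc-GFPhi, against 29.1 to 39.3 CPM in Hdc-GFPlo. Nearly all of that sum came from Lipe (32.03 CPM in Hdc-GFPhi, 32.85 CPM in Hdc-GFPlo). Only 2 adipocyte markers were tested, with none called and none at an unadjusted p under 0.05. Lep was at 0 and Plin1 had 1 count in Hdc-GFPhi and 0 in Hdc-GFPlo. With 0.947% of all tested genes called, lists this short may well hold no call.

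Of 19 megakaryocyte and platelet markers, 17 were tested and edgeR called none, while 5 had an unadjusted p under 0.05, beside 0.947% and 10.9% of all tested genes. Their median log2 fold change was 0.43, with 15 above 0 and 2 below 0. They summed to 556 to 685 CPM in Hdc-GFPhi, against 408 to 614 CPM in Hdc-GFPlo, and the fractions overlapped. Itga2b, the platelet integrin chain CD41, had the smallest p (79.4 CPM in Hdc-GFPhi, against 48.3 CPM in Hdc-GFPlo, log2 fold change 0.72, edgeR adjusted p = 0.0862). Gp6 was at 0, and Pf4, the platelet chemokine, was at 8.24 CPM in Hdc-GFPhi, against 6.25 CPM in Hdc-GFPlo. In Hdc-GFPhi replicate 3, the library with the highest Sdpr, the sum was inside the range of its fraction.

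Of 19 markers that grade progenitors from stem cells to multipotent progenitors, all tested, 1 was called higher (Esam) and 1 lower (Cd48), beside 0.947% of all tested genes called. Their median log2 fold change was 0.56, with 16 above 0 and 3 below 0, and 12 had an unadjusted p under 0.05, beside 10.9% of all tested genes. Those below 0 were Cd34 (-0.15), Flt3 (-0.50) and Cd48 (-0.71), and the median mixes markers of both ends. The part of the 19 markers in the difference of Ptrf and Prkcdbp was not tested. Some lists share genes (Tek, Robo4, Vwf, Plvap, Nos3, Adipoq, Fabp4, Kit, Ly6a or Ptprc), so their sums are not independent.

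**Figure D4:**
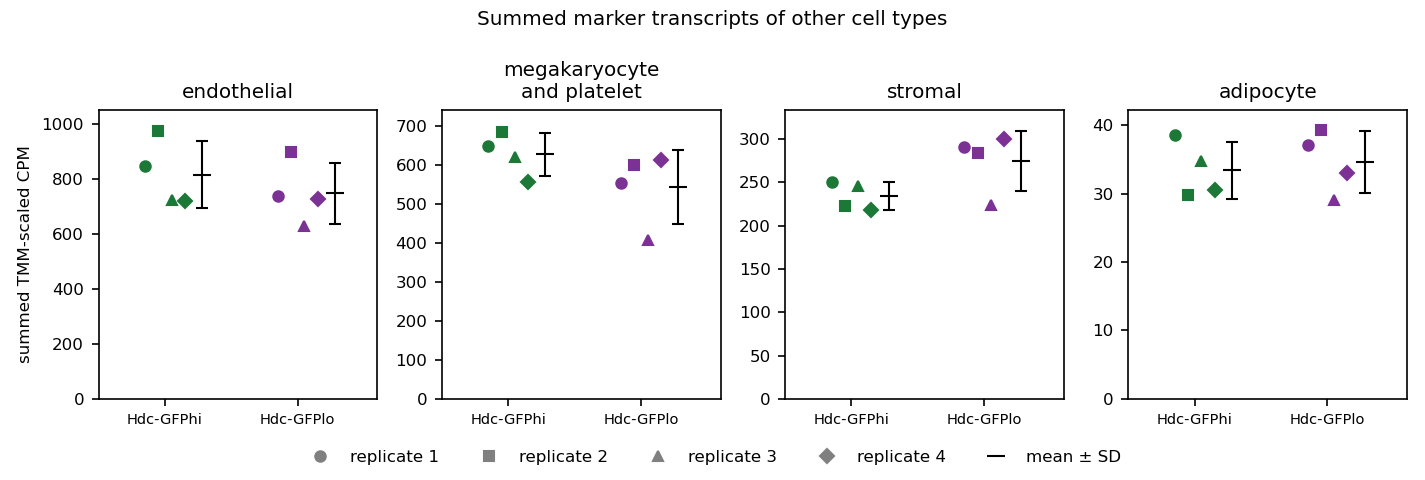
Summed TMM-scaled CPM of endothelial, megakaryocyte and platelet, stromal and adipocyte markers in each Hdc-GFPhi and Hdc-GFPlo library (linear axes from 0, marker shapes are replicate numbers, black bars the mean ± SD of 4 libraries). The fractions overlap in all 4 sums, the megakaryocyte and platelet sum running from 556 to 685 CPM in Hdc-GFPhi and from 408 to 614 CPM in Hdc-GFPlo. Most of the stromal sum comes from Runx2 and Pdgfrb, and nearly all of the adipocyte sum from Lipe.

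Among the 4 tested members, Prkcdbp and Ptrf varied together over the 8 libraries (Pearson r = 0.94 of log2 CPM, a description that includes the difference between fractions), and so did Sdpr and Cav2 (0.71). After subtraction of each fraction's mean the values were 0.65 for Prkcdbp with Ptrf and 0.72 for Sdpr with Cav2, the pair that shares its high library, Hdc-GFPhi replicate 3. Sdpr and Prkcdbp gave -0.39 before subtraction and -0.155 after it.

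Genes with the most similar pattern were sought by Pearson correlation of log2 CPM over the 8 libraries, a description that includes the difference between the fractions. For Prkcdbp these were Sdsl (r = 0.98), Dusp3 (0.97), Acvr2b (0.97), Apoe (0.97) and Smyd3 (0.96), and for Ptrf they were Rps6ka6 (0.98), Sox6 (0.98) and Mpzl1 (0.97). For Sdpr they were Zfp931 (0.97), Soat1 (0.95) and Zfp871 (0.94), and for Cav2 they were Arrdc3 (0.95), Zfp68 (0.94) and Nr0b2 (0.94). After subtraction of each fraction's mean, Dusp3 was again among the 5 closest to Prkcdbp (0.94), with Zfp296, Atp8b5, Igj and H2afy2 (0.93 to 0.95), Zfp931 stayed with Sdpr (0.97) and Zfp68 with Cav2 (0.99), whereas Gp9, Mterf and Anubl1 were closest to Ptrf (0.95 to 0.96). These genes were picked as the highest of a search over many genes, and no p is attached to them.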

How the data were processed

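RNA sequencing of 8 libraries of sorted mouse LSK cells was deposited as 1 table of raw counts by gene symbol, whole numbers that the authors had not normalized. Per the labels' protocols, RNA from 2000 cells per library was amplified by SMARTer chemistry and tagged with Nextera XT. The submitters' processing notes name bcl2fastq 1.8.4, Bowtie2, TopHat2 (version 2.04), HTSeq 0.6.1 and build mm9; the sources used here give neither annotation nor strand setting nor the handling of reads with several placements. The kit adds no molecular identifiers, so copies of a molecule count separately.

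Groups and replicate numbers were read from sample titles. Nothing says that replicates were separate animals, so p-values measure the spread between these libraries, which may be technical. No pair within a fraction agreed within sampling noise (chi-square per degree of freedom at least 13.8). Counts were filtered with filterByExpr, scaled by TMM and tested with edgeR 4.0.16 (glmQLFit with robust estimation, R 4.3.3), Hdc-GFPhi over Hdc-GFPlo, with Benjamini-Hochberg adjustment over all tested genes and a threshold of 0.05. The procedure was tested on simulated data. CPM are per TMM-scaled library total. Transcript lengths came from GENCODE M21. Similarity used log2 CPM with a prior count of 2 among genes with a mean raw count of at least 50, predicted genes left out.

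The members and lists were chosen with earlier results of these data known. Named genes are the members, in each pathway list any called gene and the 2 with the smallest p, and the 5 (Prkcdbp) or 3 genes most similar to a tested member. Ehd2, Pacsin2, Dnm2, Ttf1, Nos3, Dnm3 and the single markers were picked after their values were seen. A gene of the marker lists is not reported here and was left out of their counts and sums. Alternatives were DESeq2 1.42.0, limma 3.58.1 voom, other scalings and filters, a block for the replicate number, estimation that was not robust, and leaving out libraries.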

Additional observations from a re-analysis of the deposited data

Results flagged for a closer look

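Within Hdc-GFPlo, replicate 3 stood apart from the other libraries in the summed level of the caveola coat partners, at 429 CPM against 566 to 577 CPM, a gap of 0.925 of the range of the fraction. The same library was lowest for the summed binding partners, at 1187 CPM against 1717 to 1762 CPM, a gap of 0.922. Replicate 3 was also the lowest Hdc-GFPlo library in the sums of the LSK gate markers (1359 CPM against 1908 to 2118 CPM), the megakaryocyte and platelet markers (408 CPM against 555 to 614 CPM) and the stem cell markers (4904 CPM against 5617 to 6117 CPM), and in those of the endothelial, stromal, adipocyte and lineage markers, but not of the raft scaffolds, so its low sums were not particular to caveola genes. The LSK gate and stem cell lists share Kit and Ly6a, and the LSK gate and lineage lists share Ptprc, so these low sums are not independent. Each of the first 2 gaps exceeds the Dixon 95% critical value for 4 libraries. Of 30 groups of values examined those 2 exceeded it, where chance would give about 1 in 20. No caveolin or cavin gene exceeded it in either fraction, and among them the nearest was Sdpr in Hdc-GFPhi, at 0.789.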

How the results depend on the processing

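edgeR called 126 genes (32 higher in Hdc-GFPhi), DESeq2 404 (163 higher), voom 278 (99 higher) and the fit with the replicate block 224 (84 higher); leaving out 1 library gave 52 to 146 (8 to 41 higher), with 52 without Hdc-GFPlo replicate 1 and 68 without Hdc-GFPhi replicate 3. Whether the replicate numbers pair the libraries was not settled by the check used. Correlations of deviations between libraries of the same number were all positive, at 0.0755 to 0.347. By the same measure 4 of 8 libraries were closest to their own number. The main fit used no block, and the block changed no call of a member or partner gene. Called members (Prkcdbp, Ptrf) numbered 2 in all 8 alternatives of scaling, filter, test and block, 0 to 2 without 1 library (0 without replicate 3 or 4 of Hdc-GFPhi, or replicate 1 or 2 of Hdc-GFPlo) and 1 with Hdc-GFPhi replicate 4 left out along with Hdc-GFPlo replicate 3. Partner genes called were 0 in all 17 alternatives. The sign of the uncalled members was not stable: without 1 library the log2 fold change ranged from -0.89 to 0.02 for Sdpr and from -0.27 to 0.14 for Cav2, and without that pair of libraries it was 0.0267 for Sdpr and 0.08 for Cav2. The difference in level between Prkcdbp and Cav2 was -0.13 in Hdc-GFPlo alone and -0.45 with the mean transcript length. The cause of these shifts was not tested. Cav1, at 0 to 11 counts per library, is limited by depth.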
